A study of Danio rerio with 7 samples.

Results

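Gene expression at 48 h post-fertilization (hpf) was measured in tbx5-MO embryos relative to WT embryos on 3 of the 7 arrays of the series. The 3 samples were chosen by the stage in their labels and by no measured value. On each array Cy5 carried whole tbx5-MO embryos of the AB strain at 48 hpf and Cy3 carried whole WT embryos of the same strain and stage. The remaining arrays made the same comparison at 30 hpf (2 arrays) and at 24 hpf (2 arrays). The morpholino, an antisense oligonucleotide, was designed against the translation start of tbx5 and was injected into newly fertilised embryos. The RNA came from pooled whole embryos, so fewer cells of a type and less RNA per cell cannot be told apart in any value below. The dyes were never swapped, so dye and morpholino cannot be told apart. Whether each of the 3 arrays had its own pool of embryos is not stated, and the p-values therefore cover the spread between these arrays alone, which may be technical.

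Tbx5 is a T-box transcription factor of the developing heart and of the pectoral fin, the counterpart of the forelimb. Mutations of the human gene cause Holt-Oram syndrome, with malformed hearts and upper limbs. At 48 hpf a zebrafish embryo has a beating heart with an atrium and a ventricle, striated trunk muscle, a lens filled with crystallins, circulating red cells that carry embryonic globins, and pectoral fin buds. The array sums all these tissues.

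The measurement was a log2 ratio, tbx5-MO over WT, for each of 43663 probes. A ratio carries no level, so the labelled tissue could not be checked against its markers, and tbx5 itself is not analysed here. A morpholino of this kind acts on translation, so the amount of tbx5 RNA would not have checked the labels. The authors' value table carried no gene names. Probes received names only where their values matched those of a named probe in the authors' lists of lower probes (1.5-fold or more on each array) at 24, 30 or 48 hpf. A total of 3332 genes were named through the 24 or 30 hpf lists, a choice that did not use the 48 hpf arrays, and these genes lay on either side of 0 at 48 hpf. Another 518 genes were named through the 48 hpf list alone. Those were chosen by the authors as lower on all 3 arrays, so their values below are a description and support no direction. The other 39385 probes stayed without a name. Genes (the mean of their probes) and single probes together made 43235 features, and every gene higher at 48 hpf that is named here was on an earlier list of lower genes.

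The 3 arrays had medians of 0.01, -0.02 and -0.01 on the log2 scale. They were alike only for a minority of the probes. Over all 43663 probes the arrays correlated with each other at 0.07 to 0.14. Many log2 values recurred within an array, and 38.7%, 11.4% and 41.5% of the values on replicates 1, 2 and 3 were shared by more than 10 probes. Probes were therefore ranked by how often their value was found on the 24 and 30 hpf arrays, a measure that used none of the 48 hpf values. The 2182 probes with values that did not recur on any of those 4 arrays correlated at 0.68 to 0.69 between the 48 hpf arrays, and 63.2% of them lay on the same side of 0 on all 3. The correlation was 0.22 to 0.32 for the 2599 probes with values found 6 to 10 times, and 0.01 to 0.04 for the 7684 probes with values found more than 100 times. These are correlations across probes, which are not independent replicates. Features whose probes had values found at most 10 times on each of the 24 and 30 hpf arrays, 7180 or 16.6% of all, are called here features within the repeat limit. The limit takes out many genes whose values recurred at the earlier stages, among them most lens crystallins. All 3 arrays at 48 hpf and replicate 2 of 24 hpf had names that begin with 1 number, while those of both 30 hpf arrays and replicate 1 of 24 hpf begin with another. What the number stands for is not stated, and it cannot be told apart from stage between 48 and 30 hpf. Over the 2182 probes the 48 hpf arrays correlated with the 30 hpf arrays at -0.27 to 0.03. The direction at 48 hpf rests on the dyes in the labels and on the negative values in the authors' lists of lower probes.

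**Figure D1:**
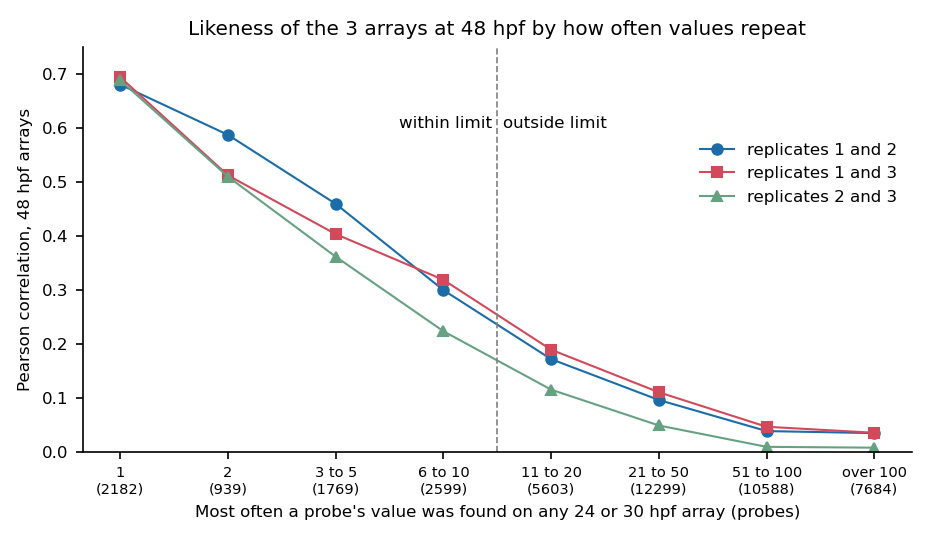
Pearson correlation between each pair of the 48 hpf arrays (y axis) for classes of probes by the largest number of times their value was found on any 24 or 30 hpf array (x axis, number of probes in brackets). The correlations fall from 0.68 to 0.69 in the first class to 0.01 to 0.04 in the last, and the dashed line marks the repeat limit.

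Few features were far from 0 on all 3 arrays, and over all features no difference passed the test. At least 1.5-fold lower in tbx5-MO on every array were 849 features (1.96% of 43235), and at least 1.5-fold higher were 824 (1.91%). Among the 3332 genes named through the 24 or 30 hpf lists, 107 (3.21%) were that much lower and 105 (3.15%) that much higher. limma, fitted to all 7 arrays with 1 mean per stage, called 0 of the 43235 features at an adjusted p of 0.05 (0%, lowest adjusted p = 0.638), while 2448 (5.66%) had an unadjusted p under 0.05. Within the repeat limit, where limma was fitted to the 3 arrays of 48 hpf, 420 of 7180 features were called (5.85%), 294 lower (4.09%) and 126 higher (1.75%). Of the lower ones, 188 were genes of the 48 hpf list alone, chosen as lower. The genes named through the earlier lists gave 93 calls of 1103 (8.43%), 44 lower (3.99% of 1103) and 49 higher (4.44%), and probes without a name gave 62 lower and 77 higher of 5782. The smallest mean among the calls was 0.84 in size. These calls depended on the arrays and on the limit: 0 were made without replicate 1 or without replicate 3, 106 without replicate 2 (98 of them among the 420), and 0 when the limit was widened to values found at most 50 times. All 420 kept their sign without each replicate, but this was nearly fixed in advance, since they were called on these same arrays. In the text below, a gene that "rose" or "fell" passed the test within the repeat limit, and its adjusted p is from that fit.

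**Figure D2:**
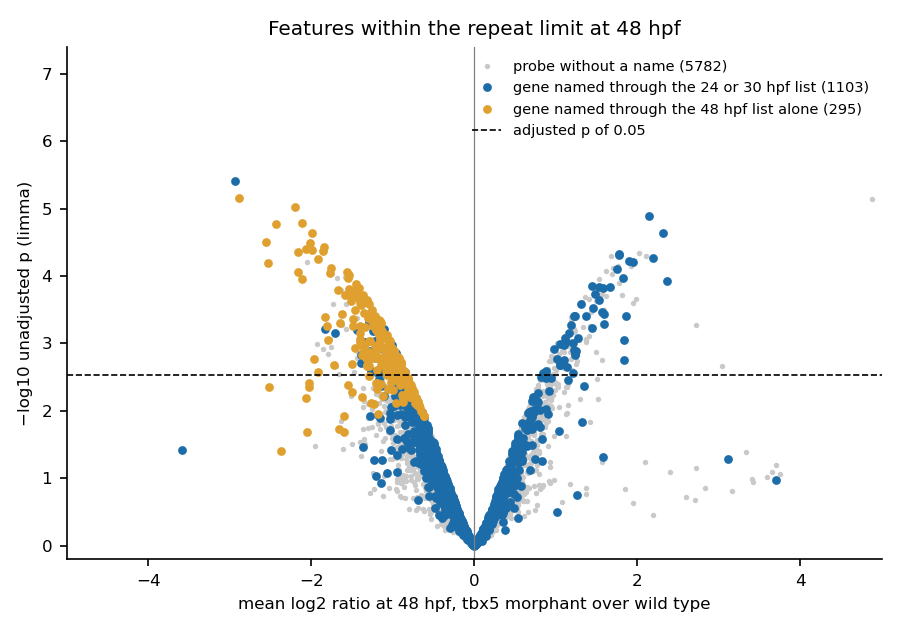
Mean log2 ratio at 48 hpf (x axis) against -log10 of the unadjusted p from limma (y axis) for the 7180 features within the repeat limit. Blue genes, named through the earlier lists, lie on both sides, with 44 lower and 49 higher past the dashed line, and yellow genes, named through the 48 hpf list alone, lie only below 0 because they were chosen so.

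Genes of the contractile apparatus of skeletal muscle were mostly higher in tbx5-MO embryos, though several of the lowest genes also belonged to muscle. Of 43 muscle genes named through the earlier lists, 29 had a mean above 0, against 43.5% of all genes named that way and 49.7% of all features. The median of the list was 0.47, with 0.30, 0.43 and 0.45 on the 3 arrays, beside -0.08 for all 3332 genes. Within the limit lay 26 of them, of which 10 rose, 2 fell and 14 did not pass. Of all such named genes 4.44% rose and 3.99% fell, and of all features within the limit 1.75% and 4.09%. Parvalbumins bind calcium in fast muscle and speed its relaxation, and pvalb1 and pvalb2 were the highest. Another parvalbumin, pvalb4, was nearer to 0, with probe means of 0.13 and 0.64. The log2 ratios of pvalb1 were 1.87, 2.45 and 2.62 on the 3 arrays, a mean of 2.31 ± 0.39 (SD, n = 3) or 4.97-fold (adjusted p = 0.0169). Those of pvalb2 were 1.83, 1.99 and 2.74, a mean of 2.19 ± 0.48 (adjusted p = 0.0169). Both genes were more than 3-fold higher on every array. The thin-filament actins followed. acta1b gave 1.49, 1.32 and 1.503, a mean of 1.44 ± 0.10 (adjusted p = 0.0209), and actc1b gave 1.57, 0.92 and 1.83, also a mean of 1.44 (adjusted p = 0.0311). The other muscle genes that rose were the regulatory myosin light chain mylpfa (mean 1.21), the fast troponin T tnnt3b (1.21), the fast troponin C tnnc2.2 (1.05), the creatine kinase ckmb (1.05), the tropomyosin tpma (1.02) and the Z-disc actinin actn3a (0.84), with adjusted p-values between 0.0358 and 0.0491. The calcium pump atp2a1l, at 1.25, 1.55 and 1.56, and the myosin light chain mylz3, at 1.19, 1.20 and 1.601, lay outside the limit and were not tested there.

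Among the muscle genes that fell was also a fast troponin, although the fast troponins tnnt3b and tnnc2.2 rose. tnni2b.1, a fast troponin I that holds the filament in its relaxed state, had the second lowest mean of the genes named through the earlier lists, at -2.65, -2.85 and -3.30, a mean of -2.93 ± 0.33 (SD, n = 3) or 7.63-fold lower (adjusted p = 0.0169). unc45b, a chaperone that folds myosin, was at -2.45, -0.999 and -2.05, a mean of -1.83 (adjusted p = 0.0311). All 3 arrays were at least 1.5-fold lower for both. A troponin T, tnnt2c, named as a slow skeletal troponin T in the files, fell as well, with a mean of -1.71 (adjusted p = 0.0323), but its probes differed in size, at -2.54 and -0.87. The 48 hpf list alone held 7 more genes of this list, from xirp1 at -1.91 to smtnl1 at -0.68. Among them were smyd1b, a methyltransferase that works with unc45b in building myosin filaments (-1.31), the intermediate filament desmin desma (-0.94), and the slow myosin smyhc1 (-0.75). These 7 were chosen as lower.

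Lens genes showed the largest shift of any list. Crystallins are the densely packed soluble proteins that make the lens transparent. Of 14 lens genes, 11 had a mean above 0 and 9 were at least 1.5-fold higher on every array, with a list median of 1.71 and array medians of 1.38, 1.35 and 2.35. Of all genes named through the earlier lists 43.5% had a mean above 0 and 3.15% were that much higher, and of all features 49.7% and 1.91%. Only crybb1 and prox1a lay within the repeat limit, so for the others there is no test beyond that over all features, which called none. The beta crystallin crybb1, measured by 4 probes with means of 1.996 to 2.597, was at 2.30, 1.68 and 3.12, a mean of 2.36 ± 0.72 (SD, n = 3) or 5.15-fold, and it rose (adjusted p = 0.0192). The gamma crystallins crygn2, at 2.33, 1.83 and 2.86, and crygmx, at 2.00, 2.44 and 2.36, had means of 2.34 and 2.27. The beta crystallins cryba1b, at 1.99, 1.78 and 2.83, and cryba4, at 1.72, 1.67 and 2.35, had means of 2.20 and 1.91. At 48 hpf each of these values was found once on its array, although the genes failed the limit on the earlier arrays. mipb, the water channel of lens fibres, was at 1.51, 1.07 and 2.91. Replicate 3 was the highest for most of these genes. The transcription factor prox1a, which is also made outside the lens, was at -0.26, 0.04 and -0.23, and lgsn, a lens protein related to glutamine synthetase, at -0.02, -0.46 and 0.12.

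**Figure D3:**
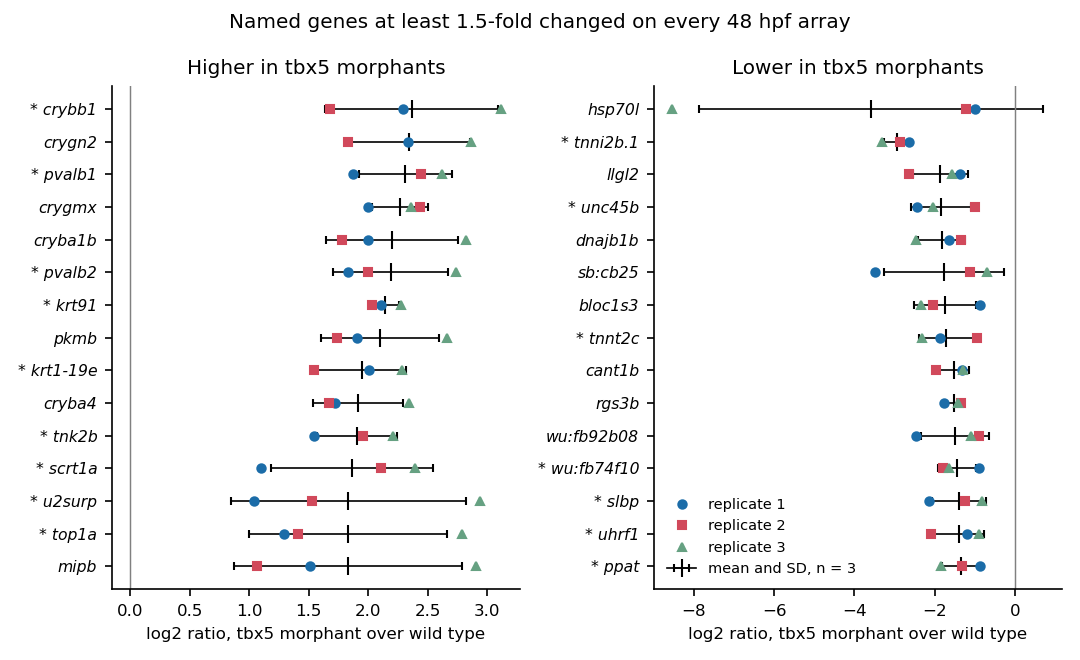
Log2 ratio, tbx5-MO over WT, of the 15 highest (left) and 15 lowest (right) genes named through the 24 or 30 hpf lists among those at least 1.5-fold changed on every 48 hpf array, with the mean and SD (n = 3) and the 3 arrays as points. An asterisk marks an adjusted p under 0.05 within the repeat limit, and the wide bar of hsp70l reflects -8.54 on replicate 3 against -0.98 and -1.22 on the others.

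Some embryonic globins and skin keratins were high and others were not. The alpha globins hbae3 and hbae1.1, of primitive red cells, both rose: hbae3 was at 1.55, 1.62 and 2.07, a mean of 1.74 ± 0.28 (SD, n = 3, adjusted p = 0.0176), and hbae1.1 at 1.19, 1.31 and 1.43, a mean of 1.31 ± 0.12 (adjusted p = 0.0219). The beta globin hbbe2, at 1.41, 0.54 and 1.43, and slc4a1a, the anion exchanger of the red cell membrane, at 0.64, 1.03 and 1.56, lay outside the limit. Another embryonic beta globin, hbbe3, was below 0 on all 3 arrays, at -0.80, -0.34 and -0.44 (adjusted p = 0.133), and so were both of its probes. Enzymes of haem synthesis did not follow: urod was at -1.14, -1.03 and 0.17, and hmbsa at -1.004, -0.67 and -0.75. The list of 17 red cell genes thus had a median of 0.01, with 9 above 0. Of 13 epidermis genes, 8 had a mean above 0 and the median was 0.29. Beside both lists, 43.5% of all genes named through the earlier lists and 49.7% of all features lay above 0. Within the limit lay 7 red cell genes, of which 2 rose, and 8 epidermis genes, of which 2 rose. Of all such named genes 4.44% rose, and of all features within the limit 1.75%. Keratins form the filament network of the embryonic skin. krt91, at 2.11, 2.03 and 2.27, had a mean of 2.14 ± 0.12 (adjusted p = 0.0169), and krt1-19e, at 2.01, 1.54 and 2.29 over 3 probes, had a mean of 1.95 ± 0.37 (adjusted p = 0.0169). krt4 was below 0 on all 3 arrays, at -0.68, -0.76 and -0.41 (adjusted p = 0.0931). For krt1-19d, 1 probe gave a mean of 0.74 and another, from the 48 hpf list alone, -0.92, so its direction is not settled. The same list held krt92 (-1.79) and krt8 (-0.88), and the ionocyte genes ca15c (-1.75), a carbonic anhydrase, and the proton pump subunit atp6v1ba (-1.19).

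Matrix genes lay on both sides of 0. col1a1b, a chain of the type I collagen of skin and fin folds, rose, at 0.82, 1.15 and 1.32, a mean of 1.098 ± 0.25 (SD, n = 3, adjusted p = 0.0364). Its partner chain col1a2 was at 0.52, 0.65 and 1.47 (adjusted p = 0.0764), and the type VI chain col6a2 at 1.01, 0.29 and 1.28. Of 23 matrix genes, 15 had a mean above 0, with a median of 0.27, against 43.5% of all genes named through the earlier lists and 49.7% of all features. The array medians were 0.21, -0.03 and 0.15. Within the limit lay 8 of them, of which col1a1b alone was called. Of all such named genes 4.44% rose, and of all features within the limit 1.75%. On the 48 hpf list alone stood 12 matrix genes. They included the collagen prolyl hydroxylases p4ha2 (-1.86) and p4ha1b (-1.09), the lysyl hydroxylase plod1a (-1.32), the collagen chaperones serpinh1b (-1.67) and serpinh1a (-1.20), the crosslinking enzyme loxl5b (-1.58), the basement membrane proteins nid2 (-2.12) and lama1 (-1.49), and the matrix metalloproteases mmp2 (-1.40), mmp9 (-1.30) and mmp13a (-1.27), for which a probe of an earlier list gave -0.14. The last of the 12 was a collagen, col18a1a (-0.85). A matrix gene that was higher had no name unless an earlier list held it.

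Genes of neurons were somewhat higher. Of 39 genes, 26 had a mean above 0 and the median was 0.19, with array medians of 0.09, 0.25 and 0.29. Above 0 lay 43.5% of all genes named through the earlier lists and 49.7% of all features, shares that also belong beside the retina and pigment counts below. Only 9 of the neuron genes lay within the limit, and 2 of those rose. Of all such named genes 4.44% rose, and of all features within the limit 1.75%. nrxn1a, a neurexin that joins synapses across the cleft, was at 1.63, 1.73 and 1.98, a mean of 1.78 ± 0.18 (SD, n = 3, adjusted p = 0.0169), and stxbp1a, which prepares vesicles for release, was at 0.91, 0.71 and 1.01 (adjusted p = 0.0483). neurod4, a bHLH factor of neuron differentiation, was as tight, at 1.12, 1.21 and 1.17, but outside the limit. vamp2, a vesicle SNARE, was uneven, at 1.63, 0.33 and 2.23. gabra6a, a GABA receptor subunit, owed its mean to 4.39 on replicate 3, beside 0.30 and 0.31. olig3, a bHLH factor of the neural tube, was the lowest of those within the limit, at -0.81, -0.61 and -1.16 (adjusted p = 0.057). The transcription repressor scrt1a, of newly formed neurons, was outside the list but among the 15 highest genes of those 1.5-fold higher on every array, at 1.096, 2.10 and 2.39, and it rose (adjusted p = 0.0267). It was picked for its high mean, so it gives no support to a shift of neuron genes. The retina list (14 genes, median 0.17, 10 above 0) had array medians of 0.07, -0.17 and 0.21. Its only gene within the limit, the homeobox factor otx5, of photoreceptors and the pineal, rose, at 1.28, 0.88 and 1.18 (adjusted p = 0.0354). Its relative otx2b was at 0.77, 2.94 and 1.21, outside the limit. In the 9 pigment cell genes the median was 0.57, with 7 above 0, but the arrays differed, at 0.21, 0.27 and 0.65. Among them mitfa, the regulator of melanocyte fate, was at 0.21, 1.06 and 1.16, pmela, of melanosome fibrils, at 0.26, 0.68 and 0.90, and neither of the 2 genes within the limit passed.

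Genes for the cytosolic ribosome were low as a body. Of 41 ribosomal protein genes, 37 had a mean below 0, against 56.5% of all genes named through the earlier lists and 50.3% of all features, with a median of -0.55 and array medians of -0.39, -0.75 and -0.46. The shift was small for each gene, so that within the limit, where 40 of them lay, 3 fell and 37 did not pass. Of all such named genes 3.99% fell, and of all features within the limit 4.09%. rps24 was at -0.91, -1.60 and -1.11, a mean of -1.21 ± 0.35 (SD, n = 3, adjusted p = 0.0354). rpl36a was at -0.92, -1.49 and -0.68 (mean -1.03, adjusted p = 0.0492), and rps8a at -0.81, -0.94 and -0.80 (mean -0.85, adjusted p = 0.049). Further probes of rps8a, on the 48 hpf list alone, had a mean of -0.81, but they were chosen as lower and give no separate support. Replicate 2 was the lowest for rps24 and rpl36a. rpl29 averaged 0.31, -0.01 and 0.59, but its probes were opposed, with means of 1.21 and -0.61, so its direction is not settled. The 19 genes of the mitochondrial ribosome had a median of -0.37 and 16 below 0, among them mrps14 at -1.22, -0.79 and -1.17 and mrpl38 at -0.52, -1.04 and -0.86, and none of the 10 within the limit passed. Translation factors and tRNA synthetases had a median of -0.15 over 28 genes, of which 18 lay within the limit. The helicase eif4a2 was the only call among these and fell, at -0.87, -0.79 and -1.23 (adjusted p = 0.044), while eif3ea, of initiation factor 3, was at -0.81, -0.51 and -1.07 (adjusted p = 0.0656). By comparison, 39 genes of oxidative phosphorylation had a median of -0.10, and the only call among the 33 within the limit was uqcrb of complex III, which rose, at 0.98, 1.12 and 1.72 (adjusted p = 0.0354). Of all genes named through the earlier lists within the limit 8.43% were called, and 4.44% rose. Of all features within it 5.85% were called, and 1.75% rose. The 37 genes of the splicing list had a median of -0.19, with no call among the 26 within the limit. The splicing-related u2surp, outside the list, rose, with a mean of 1.83 (adjusted p = 0.0426).

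**Figure D4:**
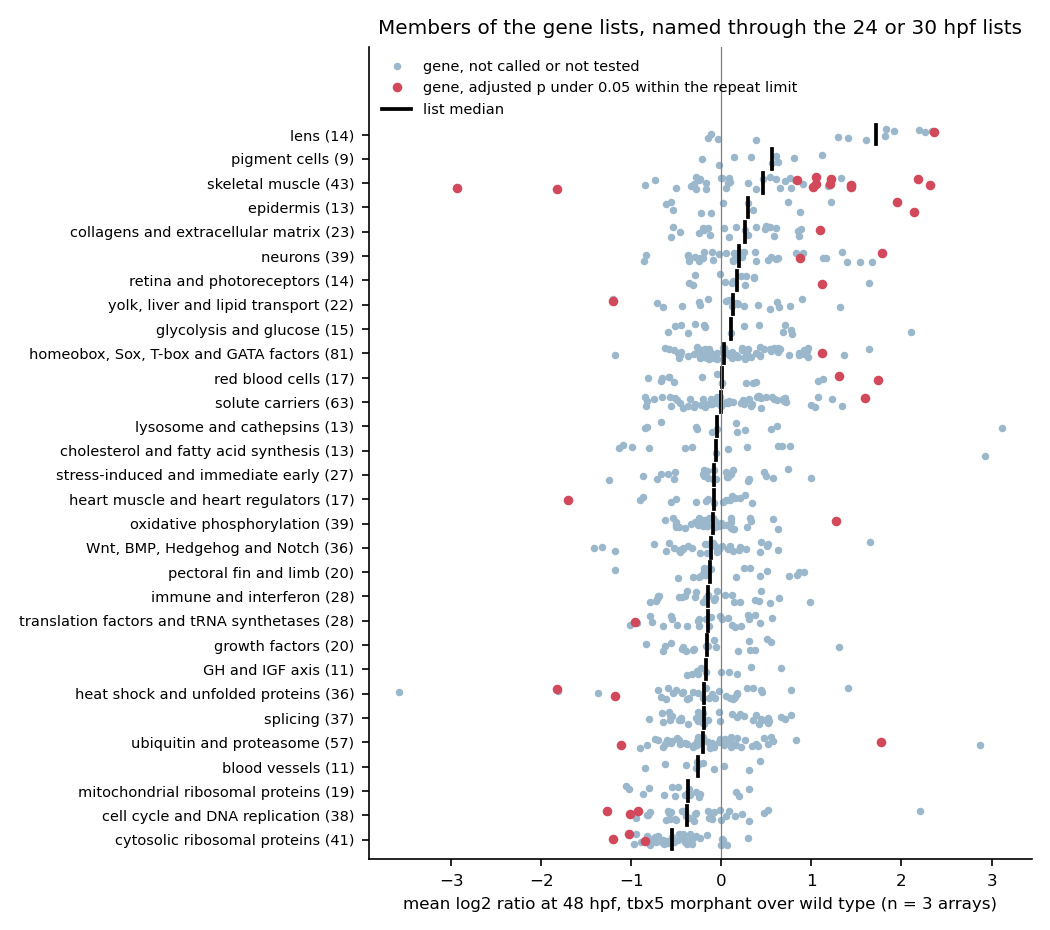
Mean log2 ratio at 48 hpf (x axis, n = 3 arrays) of each member of the gene lists with at least 9 members, with the list median as a bar and the number of members in brackets. Lens is at the top with a median of 1.71 and cytosolic ribosomal proteins are at the bottom with -0.55, and red points passed the test within the repeat limit.

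Genes of DNA replication and cell division were low. Of 38 such genes, 30 had a mean below 0, against 56.5% of all genes named through the earlier lists and 50.3% of all features. Their median was -0.38, with array medians of -0.67, -0.16 and -0.29, and it was -0.19 without replicate 1. Of the 22 within the limit, 3 fell and 0 rose, where 3.99% of all such named genes and 4.09% of all features fell. pcna, the sliding clamp of the replication fork, was at -1.98, -0.82 and -0.998, a mean of -1.27 ± 0.63 (SD, n = 3, adjusted p = 0.0486). A second probe of pcna had a mean of -1.19, but it was of the 48 hpf list alone and so chosen as lower. aurka, a kinase of the mitotic spindle, was at -1.02, -1.07 and -0.94 (mean -1.01, adjusted p = 0.0364). pola2, of the primase complex, was at -1.02, -0.70 and -1.05 (mean -0.93, adjusted p = 0.0447). The ligase lig1, which joins Okazaki fragments, was at -1.07, -0.54 and -0.83 (adjusted p = 0.0628), and rpa3, of the single-strand binding complex, at -0.66, -0.86 and -0.94 (adjusted p = 0.0535). The cyclin ccnb1l stood apart, with 5.60 on replicate 1 beside 0.06 and 0.97. Outside the list, the DNA topoisomerase top1a was among the 15 highest of the genes 1.5-fold higher on every array, with a mean of 1.83. Among the 15 lowest of the genes 1.5-fold lower on every array, and also outside the list, were 3 more genes of related roles. These 3 were picked for their low means and give no separate support. uhrf1, which carries DNA methylation through replication, fell, at -1.20, -2.08 and -0.89 (adjusted p = 0.0408), as did slbp, which binds the stem-loop of replication-dependent histone mRNAs, at -2.13, -1.25 and -0.81 (adjusted p = 0.0434), and ppat, the first enzyme of purine synthesis, at -0.88, -1.31 and -1.83 (adjusted p = 0.0354). The 48 hpf list alone held 15 more genes of the list. Among them were the mitotic cyclins ccnb1 (-2.05) and ccnb2 (-0.88) and their kinase cdk1 (-0.83), the spindle proteins nusap1 (-1.60), kif2c (-0.999) and kif11 (-0.96), and the helicase subunits mcm6 (-1.35), mcm4 (-0.95), mcm5 (-0.89) and mcm7 (-0.75). Other probes of mcm6 and mcm5, from the earlier lists, gave means of -0.36 and -0.08.

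Chaperones were low in part. Of 36 genes of the heat shock and unfolded protein responses, 23 had a mean below 0, with a median of -0.19, beside 56.5% below 0 and -0.08 for all genes named through the earlier lists. Within the limit the median of 17 was -0.38, and 2 fell, the myosin chaperone unc45b described above and the mitochondrial chaperone hspa9, at -1.50, -1.51 and -0.53 (mean -1.18, adjusted p = 0.0491). Of all such named genes 3.99% fell, and of all features within the limit 4.09%. dnajb1b, a co-chaperone of Hsp70, was low on all arrays, at -1.64, -1.34 and -2.47, outside the limit. hsp70l, an inducible Hsp70, had the lowest mean of all named genes at -3.58, but it rested on -8.54 on replicate 3 beside -0.98 and -1.22 on the others, and it was not called (adjusted p = 0.141). bag3, a co-chaperone of muscle, was at -0.46, -1.71 and -1.95. The small heat shock protein cryabb, counted also as a lens protein, was at -0.11, 1.52 and 2.80. On the 48 hpf list alone stood 18 more, which were chosen as lower. They began with hspb1, a small heat shock protein, at -1.92, -2.39 and -3.26 (mean -2.53). They included the Hsp90 genes hsp90aa1.1 (-2.01) and hsp90aa1.2 (-1.62), the endoplasmic reticulum chaperone hspa5 (-1.31), the phosphatase subunit ppp1r15a (-2.07) and the mitochondrial hspe1 (-1.19). In the proteasome and ubiquitin list (57 genes, median -0.20) 29 lay within the limit. Of these, psme3, a proteasome activator, fell, at -1.03, -1.64 and -0.67 (adjusted p = 0.0491), and the ubiquitin ligase rnf144aa rose, at 1.58, 1.81 and 1.95 (mean 1.78, adjusted p = 0.0169). Of all such named genes 4.44% rose, and of all features within the limit 1.75%. usp43a was carried by 7.77 on replicate 1, beside 0.73 and 0.11.

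Lysosomal, hatching gland and liver genes gave 1 call among those named through the earlier lists. Within the limit lay 6, 2 and 13 of them. Of all genes named that way within the limit 8.43% were called, and of all features within it 5.85%. Of 13 lysosomal genes named through the earlier lists, 7 had a mean below 0 (median -0.04), against 56.5% of all genes named that way and 50.3% of all features. None of the 6 within the limit passed. The 48 hpf list alone held as many, 13, among them the cathepsins ctsc (-2.28), ctss2.1 (-2.20), ctsll (-2.11), ctsh (-1.44), ctsla (-1.41) and ctsba (-0.88), which are lysosomal proteases. The spread of ctss2.1 was narrow, at -2.15, -2.23 and -2.21. The metalloproteases of the hatching gland that soften the chorion, he1.1 (-1.81) and he1.2 (-1.65), were on the same list, while he1.3, named through an earlier list, was at 0.65, 0.53 and 0.04. In the list for yolk, liver and lipid transport (22 genes, median 0.13) 14 lay above 0, against 43.5% of all genes named through the earlier lists and 49.7% of all features. The fatty acid binding protein fabp1b.1 fell, at -1.50, -1.14 and -0.98 (mean -1.21, adjusted p = 0.0312). A second probe of it gave -0.96, but it was of the 48 hpf list alone and so chosen as lower. fabp2, the binding protein of the intestine, was on the 48 hpf list alone at -2.45, -2.81 and -2.03. Sterol and fatty acid synthesis had a median of -0.06 over 13 genes, with dhcr7, the last enzyme of cholesterol synthesis, at -1.26, -0.68 and -1.06. In glycolysis (15 genes, median 0.11) the pyruvate kinase pkmb was among the 15 highest genes of those 1.5-fold higher on every array, at 1.90, 1.74 and 2.66, outside the limit. The adenine nucleotide carrier slc25a4 rose, at 0.98, 1.76 and 2.05 (adjusted p = 0.0301), among 63 solute carriers with a median of -0.01. It was the only call among the 8 solute carriers within the limit.

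Few genes of the heart, the fin and growth could be tested, and few were called. Of 17 heart genes named through the earlier lists, 9 had a mean below 0, against 56.5% of all genes named that way and 50.3% of all features. Their median was -0.09, with array medians of -0.01, -0.23 and -0.33. Only 3 lay within the limit, and the other 14 were not tested there. tnnt2c was the single call, a gene of this list by its name but annotated in the files as a slow skeletal troponin. Of all genes named through the earlier lists within the limit 8.43% were called, and of all features within it 5.85%. tnnt2a, the cardiac troponin T, was at -0.21, -0.24 and 0.02. gata5 and gata6, zinc-finger factors of heart and gut precursors, were on the 48 hpf list alone. gata5 was at -1.38, -2.11 and -0.88, a mean of -1.46 or 2.75-fold lower, and gata6 at -0.71, -2.04 and -1.12, a mean of -1.29, with replicate 2 the lowest for both. The study named gata5 at this stage, so its direction was chosen. Of 20 genes of fin bud outgrowth, 11 had a mean below 0 (median -0.13), a share near that of all genes named through the earlier lists. The array medians were -0.11, 0.17 and -0.14. None of the 7 within the limit passed, and the other 13 were not tested there. msx3 was the lowest, at -1.24, -2.06 and -0.24, and meis2b the highest of those within the limit, at 0.46, 1.25 and 1.03. Sonic hedgehog shha (-1.04) and hoxd12a (-0.85), of the posterior fin bud, were on the 48 hpf list alone. The 81 genes for homeobox, Sox, T-box and GATA factors had a median of 0.03, and the 36 for Wnt, BMP, Hedgehog and Notch signals -0.12. Within the limit lay 24 and 11 of them, with otx5 as the only call in either. Blood vessel genes (11, median -0.26), immune genes (28, median -0.15) and immediate early genes (27, median -0.08) had no call within the limit, where 4, 4 and 11 of them lay. The other genes of these lists were not tested there.

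The growth-related genes that the study had listed as lower at the earlier stages were near 0 or uneven at 48 hpf on these arrays. By RT-PCR, a separate assay, the study also reported lower igf1, ghra and ghrb in tbx5-MO embryos. The growth hormone gene gh1 was at 0.76, -0.995 and -0.54, and the receptor gene ghra at 0.14, -0.39 and 0.23. The IGF binding protein igfbp2a was at 0.00, -0.65 and -0.17. mdkb, a heparin-binding growth factor, was at -0.03, -1.07 and -0.23 (adjusted p = 0.275), the adaptor grb2b at 0.38, 0.08 and 0.52 (adjusted p = 0.293), and ing4 at 0.17, 0.06 and 0.90 (adjusted p = 0.307). The arrays of gh1 and ghra lay on both sides of 0, those of mdkb all below and those of grb2b and ing4 all above. vegfaa, a growth factor of blood vessels, was the lowest, at -1.14, -1.08 and -0.28, and fibpb, related to a protein that binds FGF1, the highest, at -0.26, 1.90 and 2.26. The fibroblast growth factor fgf1a, at -0.68, 0.22 and 0.03, and the platelet-derived growth factor pdgfab, at -0.23, 0.35 and -1.38, lay on both sides of 0, and fgf6a was above it, at 0.66, 0.15 and 0.11. ghrl, the ghrelin precursor, was at -0.75, -0.87 and -1.22, but the study listed it as lower at 48 hpf, so its direction was chosen. The whole list of 11 genes of the GH and IGF axis had a median of -0.17, with array medians of 0.04, 0.08 and -0.47, and the 20 growth factor genes had one of -0.16. Neither had a call within the limit, among 4 and 6 genes. The other 7 and 14 genes of these lists lay outside the limit and were not tested there.

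Among the genes named through the earlier lists that were 1.5-fold changed on every array, several of the 15 highest and 15 lowest were members of none of the gene lists above. Among the highest were the tyrosine kinase tnk2b, at 1.54, 1.95 and 2.21, the DNA topoisomerase top1a, at 1.30, 1.41 and 2.79, and the splicing-related u2surp, at 1.04, 1.53 and 2.94. All 3 rose, with adjusted p-values of 0.0169, 0.0354 and 0.0426, and replicate 3 was the highest for each. Among the lowest were llgl2, a protein of the basolateral side of skin cells, at -1.37, -2.64 and -1.55, the lysosome-related organelle subunit bloc1s3, at -0.87, -2.03 and -2.34, the nucleotidase cant1b, at -1.30, -1.97 and -1.30, and the G protein regulator rgs3b, at -1.77, -1.33 and -1.43. These 4 lay outside the limit. The transcript wu:fb74f10 fell, at -0.89, -1.79 and -1.64 (adjusted p = 0.0312), and wu:fb92b08 was at -2.46, -0.90 and -1.10. sb:cb25 was at -3.48, -1.12 and -0.69.

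The 518 genes named through the 48 hpf list alone had means between -2.89 and -0.62, with a median of -1.05. The lowest was prtga, a protogenin of the embryonic axis, at -2.82, -2.50 and -3.35, or 7.42-fold lower. Then came the cytochrome P450 cyp4t8, at -3.48, -1.90 and -2.63, and sesn3, a sestrin of stress metabolism, at -2.09, -3.18 and -2.38. Not all low means in this set were even over the arrays. rpia, an enzyme of the pentose phosphate pathway, had -4.56 on replicate 1 beside -1.62 and -1.38, and hspa14, an Hsp70 relative of the ribosome, -5.63 beside -0.61 and -0.86. At the earlier stages these 518 genes were not selected, and their median log2 ratio was 0.04 at 30 hpf, where 275 had a mean above 0, and -0.15 at 24 hpf, where 205 did. For 56 symbols a second probe, from an earlier list, was also placed, and its mean at 48 hpf was below 0 for 45 and above 0 for 11. Where several probes named through the earlier lists measured 1 gene, their means differed by a median of 0.37 over 337 genes.

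Set against 30 hpf, the muscle, lens, neuron and red cell lists lay on the other side of 0. The comparison used genes named through the 24 hpf list, which was chosen on neither stage. For 22 muscle genes the median was 0.53 at 48 hpf and -1.66 at 30 hpf, and for 9 lens genes it was 1.62 at 48 hpf and -1.50 at 30 hpf. For 19 neuron genes it was 0.19 at 48 hpf and -0.48 at 30 hpf, and for 9 red cell genes 0.27 at 48 hpf and -0.63 at 30 hpf. All 1936 genes named through the 24 hpf list had medians of -0.11 at 48 hpf and -0.15 at 30 hpf. In these 4 lists every array of 48 hpf lay above 0 and every array of 30 hpf below. The red cell median at 48 hpf was 0.01 over all 17 genes. Over 7 epidermis genes the medians were 0.88 at 48 hpf and -0.0044 at 30 hpf, and over 5 retina genes 0.27 at 48 hpf and 0.18 at 30 hpf. The cell cycle list was below 0 at both stages, at -0.33 at 48 hpf and -0.21 at 30 hpf over 24 genes. Against 24 hpf, over 40 ribosomal protein genes named through the 30 hpf list, the median was -0.54 at 48 hpf and 0.26 at 24 hpf, where the 2 arrays gave -0.38 and 1.02. For single genes the difference between stages did not pass limma's test over all features, which called 0 for 48 minus 30 hpf (0%, with 3123 or 7.22% at an unadjusted p under 0.05) and 1 probe without a name for 48 minus 24 hpf (0.00231%, with 3476 or 8.04%). The difference for pvalb1 was 5.35 between 48 and 30 hpf (adjusted p = 0.142) and that for cryba1b 4.45 (adjusted p = 0.258). The lists and their members were chosen with earlier results of these data known, so their differences are a description. The genes pvalb1 and cryba1b were picked for being among the highest at 48 hpf. Both were also on the 30 hpf list of lower genes, so the choice can enlarge their differences.

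**Figure D5:**
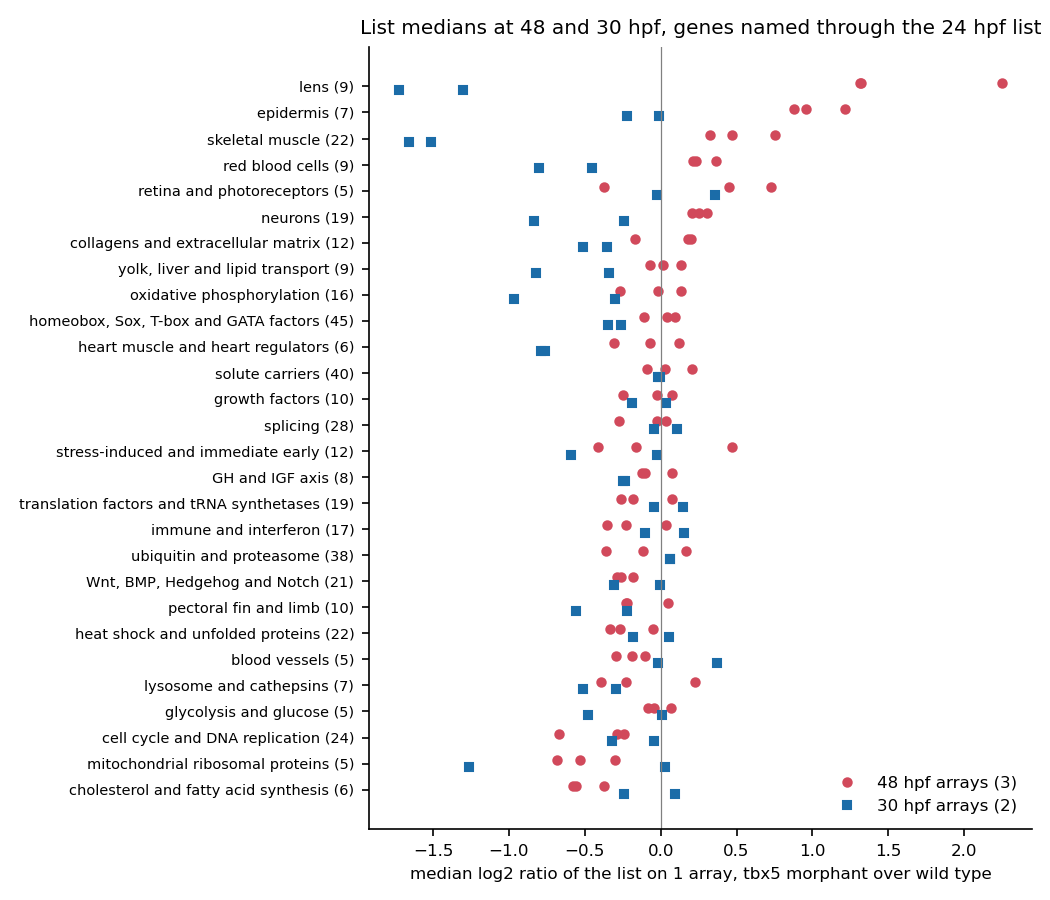
Median log2 ratio of each list on each 48 hpf array (circles) and each 30 hpf array (squares), over genes named through the 24 hpf list, whose number is in brackets. Lens and skeletal muscle lie at 1.62 and 0.53 at 48 hpf and at -1.50 and -1.66 at 30 hpf as medians of the gene means, and these 2 stages also differ in the number that begins the array names.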

How the data were processed

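The arrays were 2-colour Agilent zebrafish arrays that the authors scanned with a GenePix scanner and normalized in GeneSpring GX. They deposited 1 log2 ratio per probe and array, and for each stage a list of named probes at least 1.5-fold lower on every array. The labels and methods do not give the steps of the normalization, any background correction or the genome build of the lists. No intensities entered, so signal over background is unknown, and the number of arrays limits the precision.

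A named probe was placed where its values on all arrays of its stage matched those of 1 row of the table alone, within 2e-06, which held for 6662 of 6740 probes. Of 4317 probes with a symbol, 3962 were matched by Entrez number to a reference table (GRCz12tu), and symbols were updated through it. Probes of 1 symbol were averaged. The array of 24 hpf labelled replicate 2 carries number 3 in its list, and it was used only as an array of that stage.

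limma 3.58.1 (R 4.3.3) tested each mean against 0 with Benjamini-Hochberg adjustment over all features of a fit, at 0.05. The fit over all features used 7 arrays and 1 mean per stage. The fit within the repeat limit used the 3 arrays of 48 hpf. The code was tested on simulated data. Members and the 32 gene lists were chosen with earlier results of these data known, and 34 memberships that rested on spelling alone were taken out after values were seen. A further list is not reported here. Named genes were the 15 highest and 15 lowest named through the earlier lists among those 1.5-fold changed on every array, the lowest 10 of the 48 hpf list alone, the growth genes of the study, and up to 6 members of each list with up to 2 on its other side. Further members that passed the test, and members of the 48 hpf list alone, were named after their values were seen. Alternatives were median centring, scaling to 1 median absolute deviation, single probes or the median of probes, other repeat limits, robust moderation, a replicate block and thresholds, and each array left out in turn. Figures were drawn with matplotlib.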

Additional observations from a re-analysis of the deposited data

Results flagged for a closer look

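Several lists and genes lay above 0 on every array of 48 hpf and below 0 on every array of another stage, or the reverse. These differences between stages were not tested here for lists, and the 48 and 30 hpf arrays differ in the number that begins their names. The lists and their members were chosen with earlier results of these data known. Against 30 hpf, over genes named through the 24 hpf list, the median log2 ratio was 0.53 at 48 hpf and -1.66 at 30 hpf for skeletal muscle, 1.62 and -1.50 for lens, 0.19 and -0.48 for neurons, 0.27 and -0.63 for red blood cells, and 0.88 and -0.0044 for epidermis, with 48 hpf before 30 hpf in each pair.

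Against 24 hpf, over genes named through the 30 hpf list, the medians were 0.63 at 48 hpf and -0.67 at 24 hpf for skeletal muscle, 1.91 and -0.23 for lens, 0.23 and -0.27 for neurons, 0.33 and -0.45 for pigment cells, 0.16 and -0.40 for epidermis, 0.52 and -0.36 for the extracellular matrix, 0.13 and -0.36 for yolk, liver and lipid transport, and 0.45 and -0.26 for sterol and fatty acid synthesis, in the same order. Heat shock genes went the other way, at -0.13 at 48 hpf and 0.09 at 24 hpf.

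Among the single genes, the mean log2 ratios against 30 hpf were 2.31 at 48 hpf and -3.04 at 30 hpf for pvalb1, 2.20 and -2.25 for cryba1b, 2.19 and -2.59 for pvalb2, 2.14 and -1.98 for krt91, 1.90 and -1.64 for tnk2b, 1.83 and -0.86 for u2surp, 1.83 and -1.30 for top1a, and 1.83 and -0.49 for mipb. The transcript wu:fb92b08 was at -1.48 at 48 hpf and 0.20 at 30 hpf, and uhrf1 at -1.39 at 48 hpf and 0.36 at 30 hpf. Against 24 hpf, crygn2 was at 2.34 at 48 hpf and -0.36 at 24 hpf, and hsp70l at -3.58 at 48 hpf and 1.20 at 24 hpf. limma's test of the difference over all features called none of these genes. They were picked for lying among the highest or lowest at 48 hpf. Of the higher genes set against 30 hpf, all but mipb were also on the 30 hpf list of lower genes. The lower genes wu:fb92b08, uhrf1 and hsp70l were on the 48 hpf list of lower genes. This choice can enlarge the differences between stages.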

How the results depend on the processing

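The count of 420 calls within the repeat limit was 0 to 106 with a replicate left out (0 without replicate 1, 106 without replicate 2, 0 without replicate 3), 29 with the spread of all 7 arrays, 0 with the replicate block over all 7 arrays, and 0 at an adjusted p of 0.01. It was 637 for values found once on the 24 and 30 hpf arrays, 0 for values found at most 50 times, 0 with the limit of 10 set on the 48 hpf arrays and 1192 for values found once on each 48 hpf array, the last chosen after seeing the data. Median centring gave 373 and scaling 326, all among the 420. The cause of these changes was not tested. Deviations of same-numbered arrays correlated at -0.0095 to 0.0198 over all probes and at -0.0411 to 0.017 within the repeat limit. Whether the numbers pair the samples is not settled by this. Most probes hardly correlated even within a stage, and the 24 hpf array used as replicate 2 carries number 3 in its list.

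For 48 minus 30 hpf the count of 0 became 294 without 30 hpf replicate 2 and was 0 without each other replicate. For 48 minus 24 hpf the count of 1 was 0 with scaling, with the replicate block and without any 48 hpf array, 605 without 24 hpf replicate 1, 1118 without 24 hpf replicate 2 and 462 over the arrays whose names begin with the same number as those of 48 hpf, the last 3 chosen after seeing the data. At 2-fold on every array, 147 features were lower and 170 higher, and with a replicate left out the 1.5-fold counts were 2105 to 2259 lower and 1990 to 2242 higher.

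List medians over the members within the limit were 0.77 for skeletal muscle, -0.21 for red blood cells, 0.0896 for epidermis, -0.38 for heat shock, -0.37 for growth factors and -0.16 for homeobox and related factors. With a replicate left out the medians were 0.34 to 0.54 for skeletal muscle, 0.20 to 0.32 for neurons, 0.20 to 0.58 for pigment cells, -0.13 to 0.10 for red blood cells, 0.0247 to 0.261 for the hatching gland, 0.12 to 0.23 for matrix, -0.234 to -0.0200 for oxidative phosphorylation, 0.0891 to 0.210 for glycolysis, 0.0595 to 0.124 for homeobox and related factors, -0.19 to 0.16 for the pectoral fin, -0.30 to -0.23 for blood vessels and -0.176 to 0.0219 for immediate early genes. They were also -0.52 to -0.19 for the cell cycle, -0.21 to -0.0298 for splicing, -0.25 to 0.0322 for growth factors, 0.0278 to 0.23 for retina, -0.16 to 0.0482 for lysosome, 0.0194 to 0.12 for solute carriers, -0.0866 to -0.0557 for the GH and IGF axis, -0.25 to -0.00214 for Wnt, BMP, Hedgehog and Notch signals, -0.26 to -0.0459 for immune genes, -0.23 to -0.11 for sterol and fatty acid synthesis, -0.27 to -0.0727 for translation factors, -0.19 to -0.11 for ubiquitin and proteasome, -0.28 to -0.17 for heat shock, -0.13 to -0.0829 for heart and 0.0609 to 0.22 for yolk and liver. Over all alternatives 13 values of list medians had the opposite sign, in the lists of growth factors, homeobox and related factors, lysosome, pectoral fin, red blood cells, solute carriers and immediate early genes.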
